A study of Mus musculus with 8 samples.

Results

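The Serpina gene cluster on mouse chromosome 12 was described at 10 of its genes, Serpina1a, Serpina1b, Serpina1c, Serpina1d, Serpina1e, Serpina3k, Serpina3m, Serpina3n, Serpina6 and Serpina10. The regions were chosen from 2 lists of ATAC-seq regions as those that overlapped one of the 10 gene bodies on the mm10 build or lay within 10 kb of one. This rule found 13 of the 8031 regions called in control liver with no overlapping call in Alb-D2KO liver, named RCAs for reduced chromatin accessibility, and 0 of the 250 regions open in Alb-D2KO liver alone. ATAC-seq reads open chromatin through a transposase that inserts adapters where DNA is accessible. Both groups were adult C57BL/6 mice, with nuclei taken from frozen whole liver, 50000 nuclei in each library and 4 libraries in each group. The Alb-D2KO mice carry floxed Dio2, the gene of the type 2 deiodinase that turns thyroxine into the active hormone T3, together with an albumin promoter that drives Cre in hepatocytes. Other liver cells therefore keep Dio2, and the controls are labelled as Cre animals. The lists hold 1 pooled call per genotype, so no value below has a replicate error, no sample can be shown on its own and no test over animals was possible. Since the lists hold only regions that differ between genotypes, the liver label could not be checked against marker genes.

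Serpins are protease inhibitors that offer a protease a loop to cut and then trap it in a covalent complex. The liver secretes many of them into plasma. Serpina1 encodes alpha-1-antitrypsin, the main plasma inhibitor of neutrophil elastase, and the mouse carries several tandem copies of it. The Serpina3 genes are the mouse relatives of the human antichymotrypsin gene and include acute-phase proteins. Serpina6 encodes corticosteroid-binding globulin, which carries glucocorticoids and inhibits no protease, and Serpina10 encodes the protein Z-dependent inhibitor of coagulation factor Xa.

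Of the 10 genes, 9 had an RCA within 10 kb of the gene body given by GENCODE M21, against 25.1% of 21938 protein-coding genes. Counting the gene body alone, 8 of the 10 held one, against 15.7% of protein-coding genes. No gene of the 10 had a region open in Alb-D2KO liver alone within 10 kb, against 1.01% of protein-coding genes, and the closest such region lay 4530 kb from the gene bodies. An RCA lay within 200 bp of a start site at 6 genes, Serpina10, Serpina6, Serpina1b, Serpina1d, Serpina1a and Serpina3n, against 5.94% of protein-coding genes. The genes were selected with these lists in view, so these counts describe the choice and nothing was tested with them. The GENCODE body of Serpina1b includes a long transcript that runs across Serpina1d, and that of Serpina3m includes a transcript that begins at the Serpina3k start site. With RefSeq bodies, which lack both, 12 RCAs lay at 8 of the 10 genes, against 24.8% of RefSeq protein-coding genes, and Serpina3m had none within 10 kb. Serpina1b and Serpina3m, both counted above for the gene body alone, held no RCA inside the RefSeq body.

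**Figure D1:**
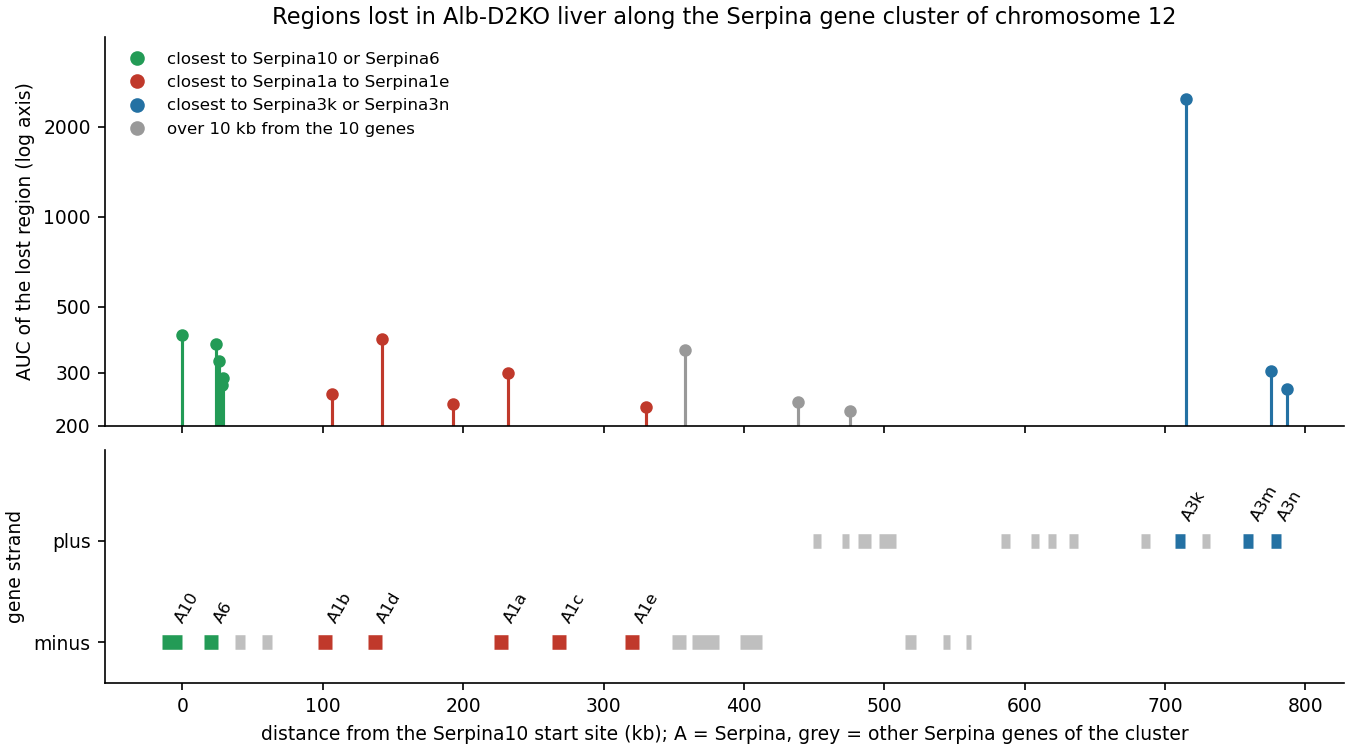
RCAs along the cluster. The upper panel plots the AUC of each RCA (log axis) against distance from the Serpina10 start site in kb, and the lower panel shows the RefSeq bodies of the 10 genes in colour and the GENCODE bodies of the other Serpina genes in grey, by strand. The Serpina3k region stands at an AUC of 2482, and the other 12 coloured regions lie between 231 and 402.

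The size of each region is given by its width and by its AUC, the area under the curve of −log10 p that the peak caller summed over the region. The AUC compares regions within 1 list and is not a read count. The median AUC of the 13 regions was 299, against 278 over all RCAs, and their median width was 369 bp, against 326 bp. Per base pair the median AUC was 0.922 against 0.909. In the share of regions with an AUC of at least 300, the 13 regions stood at 46.2% and all RCAs at 40.8%. The AUC of the 13 regions summed to 6134, of which Serpina3k held 2482. The region at the end of Serpina3k stood apart from the other 12 in AUC and width.

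Regions were sorted by position, with a promoter (within 200 bp of a start site) taking precedence over an exon, and an exon over an intron. Of the 13 regions, 6 were in promoters, 1 in an exon, 2 in introns and 4 between genes. Over all 8031 RCAs these classes held 19.4%, 10.2%, 40.0% and 30.3%.

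The number that the peak caller gave each region runs along the genome, so a number that is absent from the RCA list was read as a control region that overlapped an Alb-D2KO region. Numbers 16051 to 16067 covered the cluster from the Serpina10 promoter to the last region past Serpina3n, a span of 787 kb. Of these 17 numbers, 16 were RCAs, or 94.1%, and over chromosome 12 the share was 37.7% and over all numbers up to 22367 it was 35.9%. The stretch begins and ends at RCAs chosen by the rule and 13 of its numbers are such RCAs, so nothing is read from the difference between these shares. The absent number, 16062, lay between 2 RCAs outside the 10 genes. The first 11 numbers ran without a gap over 358 kb, and 12 of the 4669 runs of consecutive RCAs in the genome were at least that long, the longest being 17. By the same reading, no control region was called at the RefSeq start sites of Serpina1c, Serpina1e, Serpina3k or Serpina3m. No region open in Alb-D2KO liver alone lay there either, so by this reading neither genotype had a call at these start sites. Their lack of an RCA is therefore not a call kept in both genotypes. Whether these start sites were open in either genotype was not tested.

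Serpina10 held 1 RCA, at its start site. The region, chr12:103631314-103631635, was 322 bp wide with an AUC of 402, the highest of the 12 regions other than that of Serpina3k, and ranked 1253 of 8031. It spanned from 145 bp upstream to 176 bp downstream of the RefSeq start site, and its summit had a −log10 q of 3.53. All of its runs of 50 bases occur once in the genome.

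Serpina6 held 4 RCAs, more than any other of the genes by RefSeq bodies. The promoter region, chr12:103657057-103657505, was 449 bp wide with an AUC of 330, and reached from 287 bp upstream to 161 bp downstream of the RefSeq start. Its summit had a −log10 q of 2.73, a low value that 10.9% of RCAs were below. A second region lay in an intron at chr12:103655536-103655926, 391 bp wide with an AUC of 376. The remaining regions lay upstream, at chr12:103659222-103659518 with an AUC of 274 and at chr12:103660080-103660392 with an AUC of 289, which begin 2010 and 2868 bp from the GENCODE start. The AUC of the 4 regions summed to 1269 over 1450 bp, and all of their runs of 50 bases occur once in the genome.

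Sequence at the start sites of Serpina6, a single-copy gene, and of Serpina3n is shown to set it beside the Serpina1 copies that follow. That of Serpina6 is chr12:103657282-103657382 on the minus strand, 101 bases around the summit, and that of Serpina3n is chr12:104406546-104406645 on the plus strand, the 100 bases before the RefSeq start. All sequences here were read from RefSeq's GRCm38.p6 (mm10) 5′ to 3′ along the gene, and those below have no capitals because nothing in them is marked.
Serpina6: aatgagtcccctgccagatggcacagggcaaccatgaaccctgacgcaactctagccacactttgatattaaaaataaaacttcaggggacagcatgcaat
Serpina3n: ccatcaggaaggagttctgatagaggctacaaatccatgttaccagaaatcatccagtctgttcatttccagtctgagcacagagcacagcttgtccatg

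The Serpina1 genes lie on the minus strand, and 3 of the 5 held an RCA at the start site, or 1 of the 5, Serpina1d, where only regions with an AUC of at least 300 or a summit q under 0.001 are kept. The Serpina1d region, chr12:103773502-103773945, was 444 bp wide with an AUC of 388. The Serpina1a region, chr12:103863512-103863940, was 429 bp wide with an AUC of 299, and its summit −log10 q of 2.63 was the lowest of the 13. The Serpina1b region, chr12:103738251-103738527, was 277 bp wide with an AUC of 255 and ended 62 bp before the RefSeq start, so that it lay outside the RefSeq gene body. The regions began 312 to 338 bp upstream of the RefSeq starts, and those of Serpina1d and Serpina1a ran on to 131 and 107 bp past them. The summit lay 53 bp past the start in Serpina1d and upstream of it in Serpina1a and Serpina1b.

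Serpina1c held no RCA, and the closest one lay 30985 bp from its RefSeq body. Serpina1e held none at its start site. Its single RCA, chr12:103961614-103962053, lay 4717 to 5156 bp upstream of the RefSeq start and 2639 bp upstream of the GENCODE start. It was 440 bp wide with an AUC of 231, and its AUC per base pair of 0.526 was above that of 6.71% of RCAs. All of its runs of 50 bases occur once in the genome. No other stretch of the cluster aligned with at least 50% of it, so it was taken to lie outside the repeated unit. Its summit sequence is shown because it is the only RCA counted for a Serpina1 gene outside that unit. The 101 bases printed are chr12:103961814-103961914 on the minus strand, with nothing marked.
Serpina1e: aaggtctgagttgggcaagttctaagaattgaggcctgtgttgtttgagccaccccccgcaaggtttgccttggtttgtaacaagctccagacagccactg

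**Figure D2:**
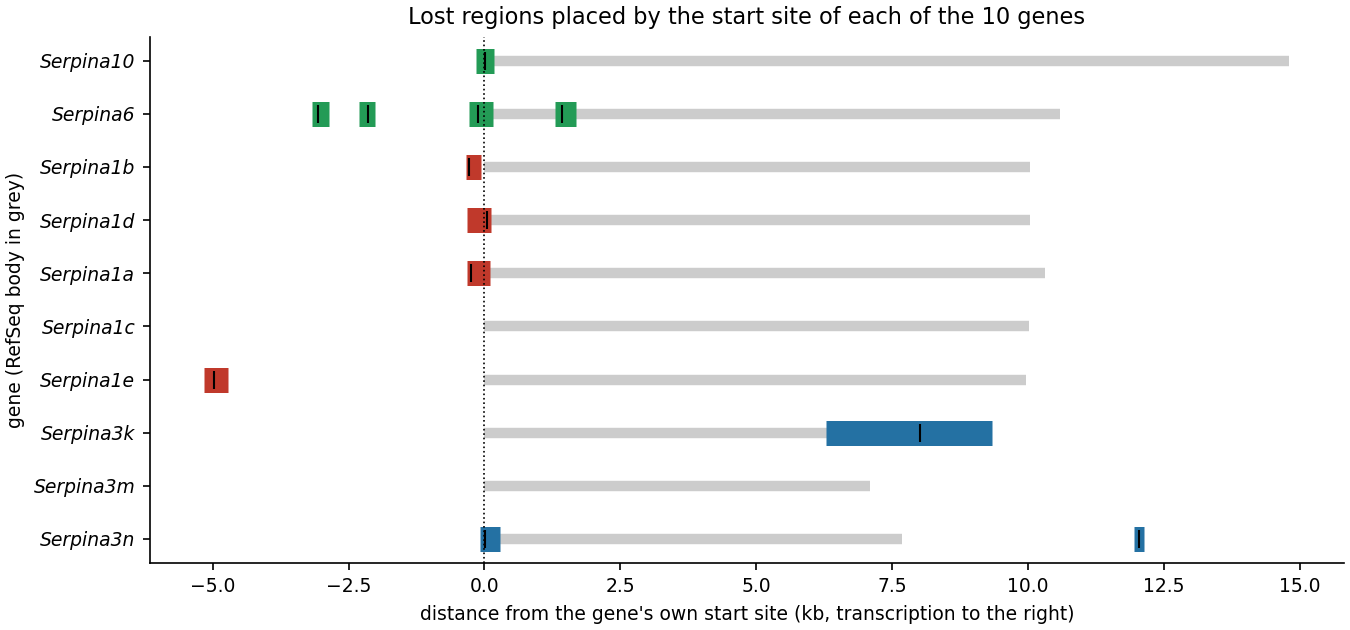
RCAs placed by the RefSeq start site of each gene. The horizontal axis gives the distance from the gene's own start in kb, grey bars are RefSeq bodies, coloured bars are RCAs and black ticks are summits. RCAs lie at the start of Serpina10, Serpina6, Serpina1b, Serpina1d, Serpina1a and Serpina3n, and the Serpina3k region lies at the far end of its gene.

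The stretch that held the Serpina1a region was found at 6 places in the cluster, at the start of each of the 5 genes and at chr12:103827962-103828389, upstream of the pseudogene Gm8893. That last place is called the sixth copy here. Over the 15 pairs of copies, identity ran from 92.8% to 97.9% with a median of 94.9%. RCAs covered 429 bp of the Serpina1a copy, 424 bp of the Serpina1d copy and 267 bp of the Serpina1b copy, and 0 bp of the Serpina1c, Serpina1e and sixth copies. The part from 220 to 61 bp upstream of the RefSeq start of Serpina1a is printed for the 6 copies to set copies with and without an RCA side by side. Capitals mark bases that differ from Serpina1a, or are absent from it, in the alignment. All are on the minus strand, at chr12:103863680-103863839 for Serpina1a, chr12:103738255-103738416 for Serpina1b, chr12:103773689-103773849 for Serpina1d, chr12:103905017-103905176 for Serpina1c, chr12:103957015-103957174 for Serpina1e and chr12:103828129-103828288 for the sixth copy.
Serpina1a: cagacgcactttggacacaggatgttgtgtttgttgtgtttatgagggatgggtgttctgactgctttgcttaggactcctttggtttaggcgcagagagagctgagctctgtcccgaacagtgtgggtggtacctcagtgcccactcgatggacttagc
Serpina1b: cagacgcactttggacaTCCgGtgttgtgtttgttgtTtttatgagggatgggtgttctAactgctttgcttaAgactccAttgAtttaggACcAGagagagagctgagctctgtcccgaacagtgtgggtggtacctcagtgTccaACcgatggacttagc
Serpina1d: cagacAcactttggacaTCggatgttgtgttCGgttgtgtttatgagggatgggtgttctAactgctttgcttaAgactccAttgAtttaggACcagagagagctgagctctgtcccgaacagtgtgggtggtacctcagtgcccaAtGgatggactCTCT
Serpina1c: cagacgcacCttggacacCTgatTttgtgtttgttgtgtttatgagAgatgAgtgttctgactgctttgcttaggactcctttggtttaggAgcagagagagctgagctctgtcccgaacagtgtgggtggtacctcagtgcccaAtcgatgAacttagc
Serpina1e: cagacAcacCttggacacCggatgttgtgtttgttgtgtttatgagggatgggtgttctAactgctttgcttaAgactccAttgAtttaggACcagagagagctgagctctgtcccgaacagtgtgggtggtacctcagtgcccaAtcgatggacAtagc
the sixth copy: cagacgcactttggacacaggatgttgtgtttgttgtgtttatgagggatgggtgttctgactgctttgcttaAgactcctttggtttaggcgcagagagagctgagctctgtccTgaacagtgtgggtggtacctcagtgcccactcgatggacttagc

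The sixth copy differed from Serpina1a at 2 marked bases and held no RCA here. Serpina1b and Serpina1d, which both held one, carried 16 and 17 marked bases. Serpina1c and Serpina1e, which held none, carried 9 and 11. Serpina1a, the reference for these counts, held an RCA, so the copies with an RCA include both the reference and the 2 copies with the most marked bases. By the region numbers, the Serpina1c, Serpina1e and sixth copies had no control call at all. Their lack of an RCA is therefore not a call kept in both genotypes.

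Reads that fit several places equally well receive a low mapping quality, and the authors removed reads of low mapping quality. The share of runs of 50 bases that occur once in the genome was 54.2% in the Serpina1a stretch, 57.2% in Serpina1b and 74.5% in Serpina1d. In the copies with no RCA it was 81.3% in Serpina1c, 52.2% in Serpina1e and 57.5% in the sixth copy. The 2 sets of copies overlap in this share, and Serpina1c, with no RCA, had the highest. With runs of 100 bases the shares rose to between 79.6% in Serpina1e and 100% in Serpina1c. Paired reads can span more than a single run, and the part of read placement in which copies hold a region was not tested.

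**Figure D3:**
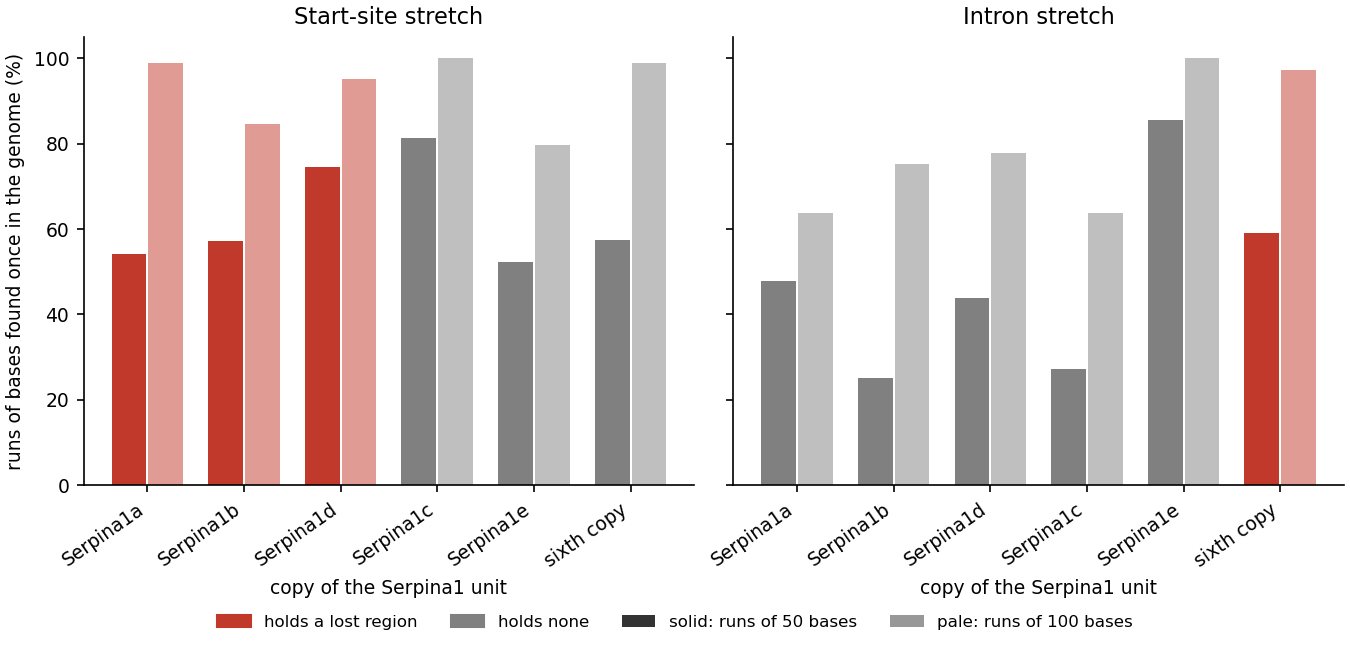
Single-copy sequence in the 6 copies of the Serpina1 unit. Bars give the percentage of runs of 50 bases (solid) or 100 bases (pale) that occur once in the genome, for the start-site stretch and for the intron stretch, in red where the copy holds an RCA. At the start sites, red and grey bars overlap, with Serpina1c, which holds no RCA, at 81.3% for runs of 50 bases.

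A further RCA belonged to the repeated unit. It lay at chr12:103823929-103824173, 245 bp wide with an AUC of 237, in an intron of the long Serpina1b transcript and 1685 bp from Gm8893, so that it counts for Serpina1b only by GENCODE. It is part of the sixth copy, 3.79 kb from that copy's start-site stretch. Each of the 5 genes carries the same stretch beginning 3611 to 3714 bp after its RefSeq start, at 95.6% to 98.4% identity. None of these 5 stretches held an RCA or, by the region numbers, any control call. Runs of 50 bases that occur once made up 59.2% of the stretch in the sixth copy, between 25.1% in Serpina1b and 85.4% in Serpina1e. The RCA of this stretch was thus in a copy with no gene of its own among the 10, and the RCAs of the start-site stretch were in 3 copies that are genes.

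By alignment to the whole genome, 3 of the 13 regions had another place that matched 80% or more of their length with 95% or more identical bases, namely the Serpina1d, Serpina1a and sixth-copy regions, against 0.549% of the 8021 RCAs on the sequences used. All runs of 50 bases occurred once in 7 of the 13 regions, against 94.3% of all RCAs. With runs of 100 bases this was 10 of the 13 and 99.3%. Over whole RefSeq gene bodies the single-copy share of runs of 50 bases was 44.8% to 61.0% for the 5 Serpina1 genes, 91.0% to 95.5% for Serpina3k, Serpina3m and Serpina3n, 61.0% for Serpina10 and 100% for Serpina6. With runs of 100 bases it was 71.2% to 87.2% for the Serpina1 genes, with Serpina1a at 75.5% and Serpina1c at 71.2%, and 68.1% for Serpina10.

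Serpina3k held 1 RCA, the second of all 8031 in AUC and in width. Serpina3k encodes a relative of antichymotrypsin also known as contrapsin, an abundant plasma serpin of the mouse. The region, chr12:104344770-104347832, was 3063 bp wide with an AUC of 2482. Its AUC per base pair was 0.810, which ranked 5028, and its summit −log10 q of 3.11 was above that of 46.5% of RCAs, so the high AUC came with the width. The region covered the last of the 5 exons of the gene, with 912 bp of exon of which 186 bp are coding, and 463 bp of intron. It then ran 1688 bp past the GENCODE end of the gene, or 2093 bp past the RefSeq end, within an intron of the long Serpina3m transcript. The summit lay 362 bp past the GENCODE end, and its 101 bases, chr12:104346456-104346556 on the plus strand, are printed to show where the call was strongest, with nothing marked.
Serpina3k: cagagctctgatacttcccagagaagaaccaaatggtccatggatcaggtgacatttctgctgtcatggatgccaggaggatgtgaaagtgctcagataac

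Regions over the end of a gene were uncommon. Of all RCAs, 176, or 2.19%, covered the end of a protein-coding gene, and of the 9 RCAs at least 1500 bp wide, 2 did, this one included. Aligned within the cluster, the Serpina3k region matched the end of Serpina3c at 81.6% identity over 99.9% of its length. It matched the sequence past Serpina3m at 84.4% over 58.9%, the end of Serpina3j at 64.6% over 95.2% and that of Serpina3n at 74.6% over 50.8%. In the alignment to the whole genome it also matched the end of Serpina3m, at 87.1% over 33.1%. None of these places held an RCA or, by the region numbers, any control call. Of the region's runs of 50 bases, 97.6% occur once in the genome, against 54.2% of those of the Serpina1a promoter region.

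**Figure D4:**
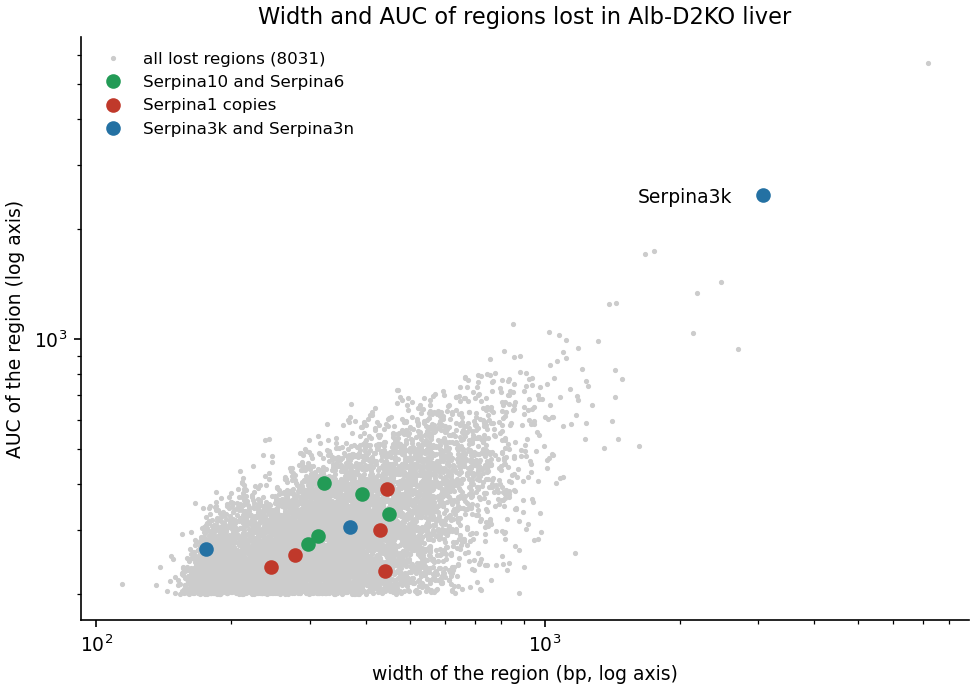
Width and AUC of all RCAs. Each grey point is 1 of the 8031 RCAs, with width in bp and AUC on log axes, and coloured points are the 13 regions at the 10 genes. The Serpina3k region, 3063 bp wide, is second in both, and the other 12 lie among the grey points.

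Serpina3n, which encodes an acute-phase inhibitor, held 2 RCAs. The promoter region, chr12:104406572-104406940, was 369 bp wide with an AUC of 305 and reached from 74 bp upstream to 294 bp downstream of the RefSeq start. The other, chr12:104418608-104418783, lay 4278 bp past the GENCODE gene body. It was the narrowest of the 13 at 176 bp, with an AUC of 265, but had the highest AUC per base pair, 1.51, and the highest summit −log10 q, 3.85, above 96.2% and 95.9% of RCAs. The promoter stretch aligned at 88.7% identity with the start of Serpina3c, at 80.5% with that of Serpina3m and at 78.4% with that of Serpina3k. None of these 3 held an RCA or, by the region numbers, any control call. Within this group of relatives only Serpina3n among the 10 genes held an RCA at its start. Serpina3m, the neighbour upstream, had its closest RCA 12312 bp from its RefSeq body.

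At the edge of the 10 kb rule, the regions farthest from a GENCODE body lay 4278, 2867 and 2638 bp away, with AUCs of 265, 289 and 231. The nearest outside it lay 30127 bp away at chr12:103989103-103989623, with an AUC of 358. The next lay 110769 and 147962 bp away, with AUCs of 240 and 223. Distances in this paragraph count only the bases between region and body, so they can be a base shorter than distances given from a start site.

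Exact matches to 7 motifs of factors known in liver were searched on both strands within 100 bases on either side of each summit. Counts here are for these summit windows, and the parts of a region outside its window were not searched. None of the 13 windows held GTTAATNAT (HNF1), CAAAGTCCA (HNF4) or TTGCGCAA (C/EBP). Over all RCAs these were in the windows of 1.37%, 2.37% and 0.150%. TGTTTAC (FOXA) was in the Serpina6 promoter region and in 5.01% of all RCAs. AGGTCA, the core of a thyroid hormone receptor site, was in the Serpina1e upstream region alone, 1 of 13, and in 23.8% of all RCAs. GGGGCGGGG (SP1) was in the downstream Serpina3n region and in 3.27% of all RCAs. TGTTCT, the core of a glucocorticoid receptor site, was in the windows of the Serpina1a and Serpina3k regions and in those of 14.9% of all RCAs. The printed stretches of the other Serpina1 copies hold TGTTCT as well. In Serpina1b and Serpina1d it lies inside the RCA but outside the summit window, so this count does not set Serpina1a apart from its copies. With 1 mismatch allowed, letters of HNF4 were in 5 of the 13 regions, of HNF1 in 2 and of C/EBP in 1, and in 16.6%, 10.4% and 6.98% of all RCAs. With 13 regions, of which several share sequence, these counts are a description of the letters in these windows.

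The cluster holds 18 other Serpina genes in GENCODE, of which 13 are protein-coding. RCAs lay within 10 kb of 5 of them, all protein-coding, where 25.1% of protein-coding genes have one, and at the start site of none, where 5.94% have one. Serpina16 was counted through the upstream RCAs of Serpina6. Serpina11 and Serpina9 shared the intronic region with an AUC of 358, and Serpina5, the protein C inhibitor, and Serpina3a shared a region between genes with an AUC of 223. No region open in Alb-D2KO liver alone lay within 10 kb of any of the 18, where 1.01% of protein-coding genes have one.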

How the data were processed

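ATAC-seq libraries from 4 control and 4 Alb-D2KO livers were studied. According to the study's methods, the authors removed adapters, aligned reads to mm10 with BWA 0.7.17, dropped duplicate, chimeric and poorly mapped reads, called regions with Genrich 0.6 on grouped libraries, and subtracted regions that overlapped those of the other genotype. The deposited signal of a region is its AUC of −log10 p. The deposited score is that signal per base pair times 1000, with a ceiling of 1000, and was only checked. The deposited −log10 q (q-value) belongs to the summit, whose offset is the last column. The lists give no read depth of any library, so no interval that needs counts is given.

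The 10 genes, the gene lists and the motifs were chosen with earlier results of these data known, and all 10 genes are described, with the other Serpina genes named where they hold a region. Gene bodies came from GENCODE M21, with RefSeq as an alternative chosen after seeing the data. The release named in the study's methods was not used here. Near-identical places in the genome were found with blastn 2.17.0 (megablast, at least 85% identity, not started in masked repeats). Related stretches within the cluster came from its blastn task with no identity floor, kept where at least 50% of the region aligned. Runs of 36, 50 and 100 bases were counted on both strands of 66 GRCm38.p6 sequences. Of the listed items, 1 gene and 1 sequence are not reported here. The scripts were tested on simulated data. Alternatives were gene bodies alone, 5 kb and 20 kb, an AUC of at least 300, a summit q under 0.001, a width of at least 200 bp, merging within 100 bp, 1000 bp promoters or region midpoints, other identities and run lengths, and wider or inexact motif windows.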

Additional observations from a re-analysis of the deposited data

How the results depend on the processing

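Of the 13 RCAs at the 10 genes, 6 had an AUC of at least 300 and 8 had a summit q under 0.001. Over all RCAs, 40.8% had an AUC of at least 300. The median summit −log10 q was 3.04 over the 13 RCAs and 3.14 over all RCAs, whose lower quartile was 2.91. Both medians pass the q filter and that quartile does not, so the majority of all RCAs pass it too. Their exact share was not counted, and nothing is read from the counts under the q filter. The other counts that answer a comparison stayed within 1.5 times their value: 9 to 13 RCAs at 8 or 9 genes under the other distances, width, merging and gene bodies, 7 genes under each of those 2 filters, 5 to 7 promoter regions under the other promoter definitions, and 2 to 4 regions with a near-identical copy. The 7 genes include Serpina1b and Serpina3m through RCAs of their neighbours, and with RefSeq bodies 5 genes passed each filter, against 8 with no filter. Of the 6 promoter regions, 4 had an AUC of at least 300 and 3 a summit q under 0.001, and of the 3 at Serpina1 genes only that of Serpina1d, 1 region, passed either filter. These combinations were chosen after seeing the data. Regions open in Alb-D2KO liver alone stayed at 0 under the 3 distances tried. The summed AUC of Serpina1b was 880 by GENCODE, 255 by RefSeq and 388 over regions with an AUC of at least 300, under which that of Serpina6 went from 1269 to 706 that of Serpina3n from 571 to 305, and those of Serpina1a (299) and Serpina1e (231) to 0. That of Serpina3m was 2482 by GENCODE and 0 by RefSeq. In the summit windows with 1 mismatch allowed, letters of HNF4, HNF1, C/EBP and SP1 were in 5, 2, 1 and 2 of the 13 regions. Exact matches were in 0, 0, 0 and 1. With 1 mismatch the shares of all RCAs were 16.6%, 10.4%, 6.98% and 15.5%. With runs of 100 bases in place of 50, the single-copy share of the gene body rose from 46.5% to 75.5% in Serpina1a and from 44.8% to 71.2% in Serpina1c. Within 200 bases on either side of the summit, TGTTCT was in 7 of the 13 and in 28.7% of all RCAs. No paired analysis was possible because the lists hold 1 pooled call per genotype, and for the same reason no library could be left out. Depth is unknown, so a region missing from a list may be one that was not detectable at this depth.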

Other observations

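Of 6 serpin genes of the liver outside the cluster, 5 had an RCA within 10 kb, where 25.1% of all protein-coding genes have one. Serpinf2, the plasmin inhibitor, had 6, with the highest AUC at 667, and it shares 3 of these with its neighbour Serpinf1. Serpinc1, which encodes antithrombin, had 2, Serping1, the complement C1 inhibitor, had 2, and Serpind1, heparin cofactor II, had 1. Serpina7, which encodes thyroxine-binding globulin, had none. Of 7 genes whose products meet the serpins of the cluster, F10, F11, Prtn3, Elane and Nr3c1 had an RCA within 10 kb, Prtn3 and Elane through the same 4 regions, and Proz and Ctsg had none. None of these 13 genes had a region open in Alb-D2KO liver alone within 10 kb, where 1.01% of protein-coding genes have one. These lists were chosen with earlier results of the data known, and nothing was tested with them.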
